A study of Homo sapiens with 7 samples.

Results

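The loci described here are those of TMPRSS2, FKBP5, SLC45A3, NDRG1, PMEPA1 and ZBTB16, 6 genes known as targets of the androgen receptor in prostate cells. Chromatin immunoprecipitation and sequencing (ChIP-seq) was carried out using an antibody to HOXB13 that carries an acetyl group on lysine 13 (HOXB13-K13ac). The cells were C4-2B, a prostate cancer line that grows without androgens and descends from LNCaP. All libraries came from cells in medium with charcoal stripped serum, which is poor in steroid hormones, and no library with added androgen was part of the design. The labels give 3 HOXB13-K13ac libraries (replicates 1, 2 and 3), 2 IgG libraries and 2 input libraries, with a library series number of 2898 for replicate 1 and of 3047 for replicates 2 and 3. The members are the peaks of all 6 deposited lists that share at least 1 bp with a fixed window around each gene on hg19, 341 of 148463 peaks. The windows were TMPRSS2 on chromosome 21 from 42800001 to 42950000, FKBP5 on chromosome 6 from 35500001 to 35750000, SLC45A3 on chromosome 1 from 205580001 to 205700000, NDRG1 on chromosome 8 from 134200001 to 134360000, PMEPA1 on chromosome 20 from 56170001 to 56340000 and ZBTB16 on chromosome 11 from 113880001 to 114170000. They span 1140 kb in all. They were set by position, without a cutoff on the height or number of peaks, but with earlier results of these data known.

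The androgen receptor is a ligand-activated transcription factor that binds enhancers and promoters together with pioneer factors such as FOXA1 and with the prostate homeobox factor HOXB13. Acetylation of a lysine can change which cofactors a transcription factor recruits. TMPRSS2 encodes a membrane serine protease whose androgen-driven 5′ end is joined to ERG in many prostate tumours, and SLC45A3 encodes prostein, a prostate-restricted membrane transporter that also takes part in ETS gene fusions. FKBP5 encodes the HSP90 co-chaperone FKBP51, which modulates steroid receptors. NDRG1 encodes a stress- and differentiation-responsive protein. PMEPA1 encodes a membrane adaptor that dampens TGF-β and androgen receptor signalling, and ZBTB16 encodes the zinc finger repressor PLZF, which androgens and glucocorticoids induce.

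RefSeq promoter sequences (GRCh38.p14) were matched by symbol for 3 of the 6 genes, FKBP5, SLC45A3 and PMEPA1, with 7 promoters among them. They are shown to give the DNA at the start of these genes. Which hg19 peaks cover them was not analysed here. The 250 bases before each start were searched on both strands for CCAATAAA and CTCGTAAA (HOXB13), TGTTTAC (FOXA1) and AGAACA (one arm of the androgen response element). These letters are found in 0.863%, 0.117%, 2.98% and 12.4% of 35116 promoters, in that order. A single promoter of the 7, one of PMEPA1, held a match, AGAACA on the opposite strand, which begins 229 bases before the start and is printed in capitals. One promoter of each gene is printed 5′ to 3′ along the gene's strand.
PMEPA1: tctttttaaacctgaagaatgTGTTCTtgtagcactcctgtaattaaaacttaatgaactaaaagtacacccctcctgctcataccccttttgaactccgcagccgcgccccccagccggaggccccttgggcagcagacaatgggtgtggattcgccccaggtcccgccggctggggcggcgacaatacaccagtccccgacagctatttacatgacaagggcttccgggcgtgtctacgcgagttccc
FKBP5: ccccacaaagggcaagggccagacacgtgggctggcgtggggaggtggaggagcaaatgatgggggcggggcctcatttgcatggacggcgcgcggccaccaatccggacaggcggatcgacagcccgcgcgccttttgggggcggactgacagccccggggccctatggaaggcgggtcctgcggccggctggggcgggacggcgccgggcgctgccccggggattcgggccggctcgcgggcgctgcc
SLC45A3: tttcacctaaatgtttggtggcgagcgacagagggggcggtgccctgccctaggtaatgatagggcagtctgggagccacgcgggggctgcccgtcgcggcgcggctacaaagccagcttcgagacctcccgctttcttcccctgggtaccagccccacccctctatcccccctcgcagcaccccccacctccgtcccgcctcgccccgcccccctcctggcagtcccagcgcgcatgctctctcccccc

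All 6 windows held peaks of replicates 1 and 2 at several times the density of the whole lists, whereas replicate 3 had few peaks in them. Replicate 1 had 109 peaks in the windows (9.56 per 100 kb), replicate 2 against input 99 (8.68 per 100 kb) and replicate 3 against input 18 (1.58 per 100 kb). The whole lists had 1.38, 1.51 and 0.608 peaks per 100 kb, so the densities of the windows together were 6.94, 5.76 and 2.60 times those of their own list. Single windows differed, and FKBP5 was lowest in replicates 1 and 2, at 4.00 per 100 kb in both. Whole-list densities were taken between the outermost peaks of each chromosome. They include gene-poor sequence, whereas the windows were placed on genes. Each list comes from 1 library and holds no read counts, so depth is unknown and no test between lists or windows was made. For replicate 1 the name of the list gives no control, and replicates 1 and 3 were told apart only by the spelling of their labels. The statements on single replicates rest on that assignment. The labels do not say whether the replicates were separate cultures.

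The ZBTB16 window, the longest, held the most peaks of replicates 1 and 2, and the FKBP5 window held the fewest. In 290.0 kb ZBTB16 had 41 replicate 1 peaks, 33 replicate 2 peaks and 5 replicate 3 peaks. Per 100 kb these were 14.1, 11.4 and 1.72. SLC45A3 held 14, 17 and 5 in 120.0 kb, which gave replicates 2 and 3 their highest density in any of the windows, 14.2 and 4.17 per 100 kb. TMPRSS2 held 15, 12 and 3, NDRG1 15, 15 and 3, and PMEPA1 14, 12 and 2. FKBP5 held 10, 10 and 0, or 4.00 per 100 kb in replicates 1 and 2. FKBP5 was thus the one window of the 6 without a replicate 3 peak.

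**Figure D1:**
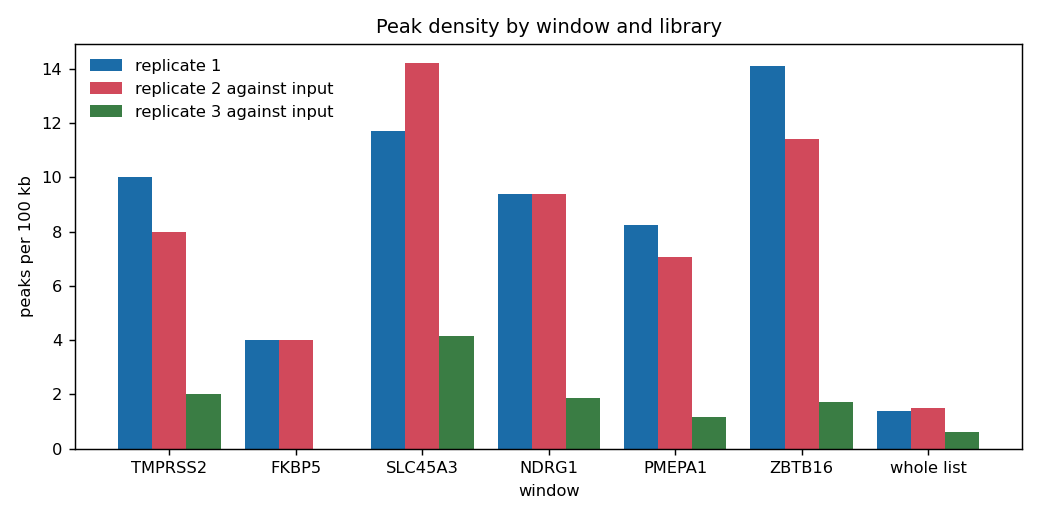
Peaks per 100 kb (vertical axis) in each window and over the whole list, with 1 bar per library list and no error bar because each list is 1 library. In all 6 windows the bars of replicates 1 and 2 lie above those of the whole lists (1.38 and 1.51), and FKBP5 has the lowest of them (4.00) and no replicate 3 bar.

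Most window peaks of replicates 1 and 2 passed a strict q threshold, and none of replicate 3 did. Among the 109 window peaks of replicate 1, 91 had a −log10 q (the significance the authors' peak caller gave, adjusted for multiple testing) of 5 or more (83.5%, against 80.7% of its whole list). So did 71 of the 99 of replicate 2 (71.7%, against 67.2%) and 0 of the 18 of replicate 3 (against 6.28%). Fold enrichment, the authors' ratio of signal to control background at the summit, had a median over the window peaks of 4.33 for replicate 1, 6.95 for replicate 2 and 4.20 for replicate 3, beside 4.67, 6.50 and 4.40 over the whole lists. The median window peak was thus close in height to that of its list, and replicates 1 and 3 had similar medians. Window peaks were broader, with a median width of 668 bp against 555 bp in replicate 1 and of 811 bp against 635 bp in replicate 2. Peaks broader than 2 kb numbered 8 in replicate 1 (7.34%, against 2.86% of its whole list) and 11 in replicate 2 (11.1%, against 5.62%). Replicate 3 had 0 in the windows and 0 in its whole list. ZBTB16 held 5 of the 8 and 6 of the 11.

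Overlapping peaks of the 3 libraries formed 125 regions in the windows, and 68 of them (54.4%) held peaks of at least 2 libraries. These are called replicated sites. Over all 65675 regions of the series this share was 41.2%. The count of replicated sites was 11 of 14 regions for TMPRSS2, 7 of 13 for FKBP5, 10 of 22 for SLC45A3, 9 of 20 for NDRG1, 10 of 15 for PMEPA1 and 21 of 41 for ZBTB16. The density of replicated sites was 8.33 per 100 kb for SLC45A3, 7.33 for TMPRSS2, 7.24 for ZBTB16, 5.88 for PMEPA1, 5.62 for NDRG1 and 2.80 for FKBP5, compared with 0.902 over the series. Both replicates 1 and 2 had a peak at 67 of the 68 (98.5%), close to the 98.9% over the series. When replicate 1 was left out 3 sites remained replicated, and when replicate 2 was left out 5 did.

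Sites of all 3 libraries numbered 4, or 3.20% of the 125 regions, against 6.99% over the series. They lay at TMPRSS2 (1), PMEPA1 (1) and ZBTB16 (2), and FKBP5, SLC45A3 and NDRG1 had 0. With the windows widened by 50 kb on both sides FKBP5 had 2 and SLC45A3 had 1, and their replicated sites went from 7 to 12 and from 10 to 19. No replicate 3 peak in the windows had a −log10 q of 5 or more, so none of the 4 could meet it in every library. None had all summits within 100 bp. Of the 18 replicate 3 peaks in the windows, 7 shared sequence with a peak of replicate 1 or 2, whereas 30.8% of its whole list did. All 5 replicate 3 peaks at SLC45A3 and all 3 at NDRG1 stood apart from the peaks of the other libraries. The highest fold enrichment of replicate 3 in any window was 5.46, at ZBTB16.

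**Figure D2:**
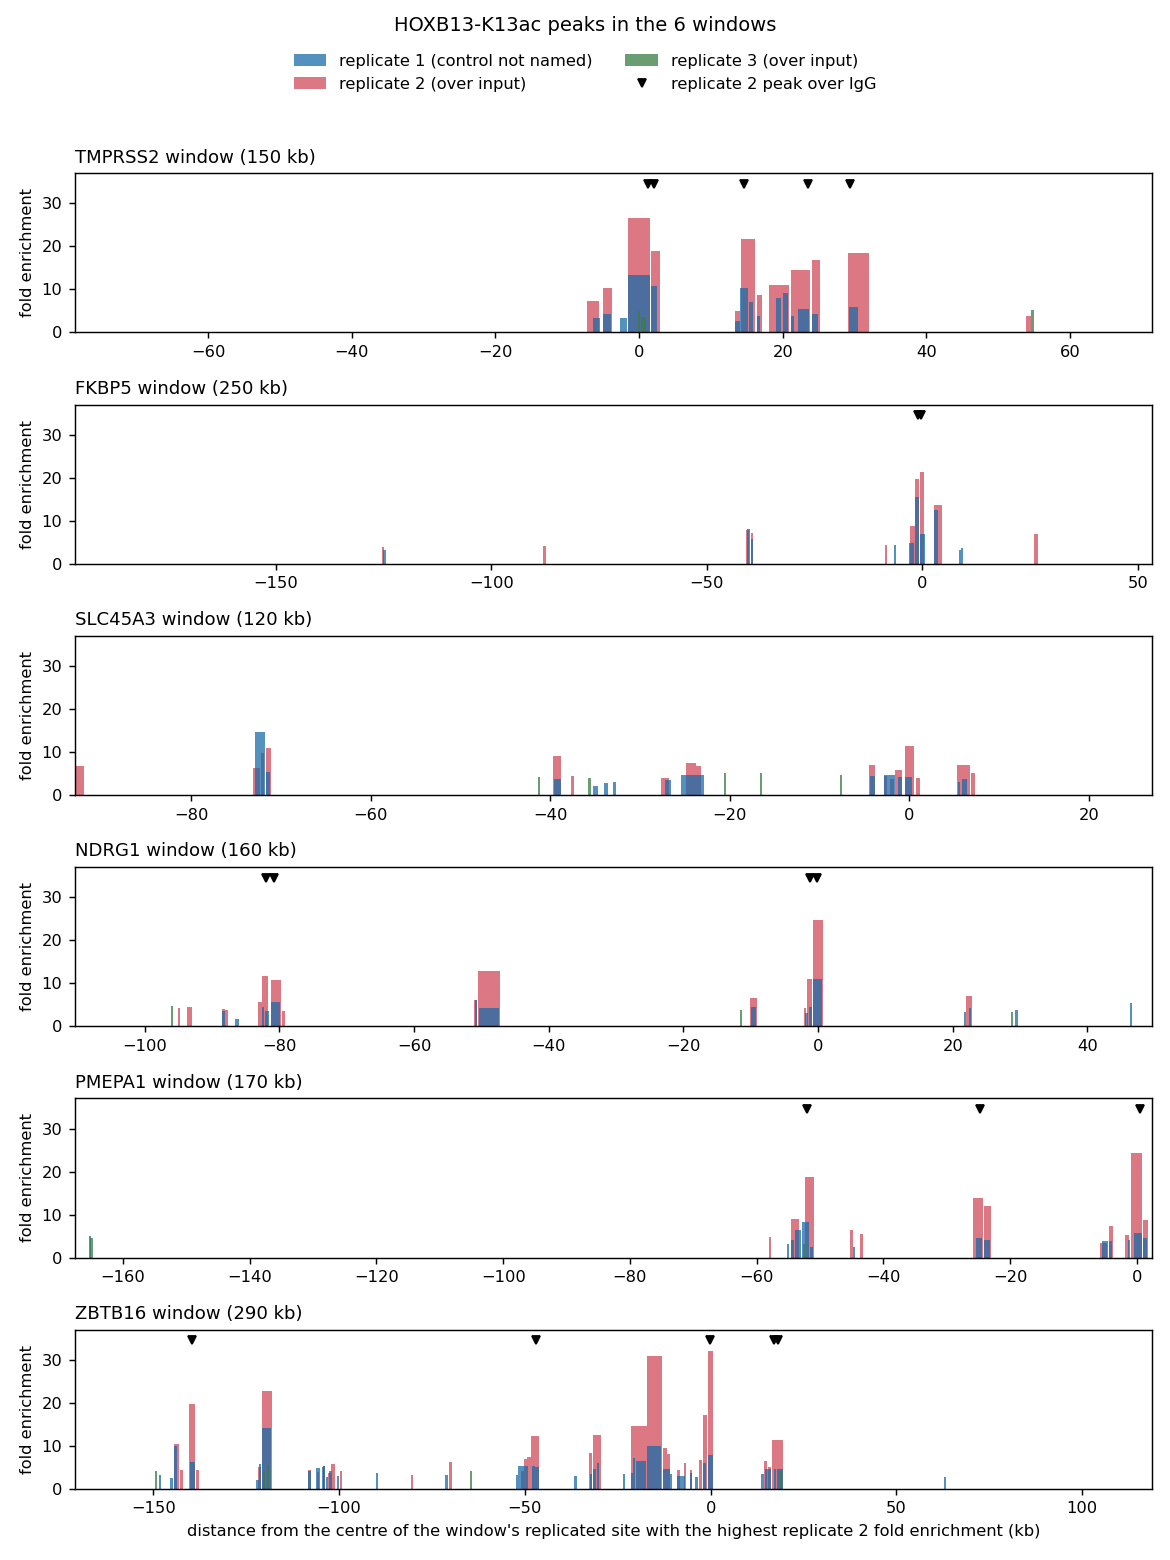
Fold enrichment (vertical axis) of every peak of replicates 1, 2 and 3 in each window, drawn as bars over the width of the peak (very narrow peaks are widened to stay visible) against the distance in kb from the replicated site with the highest replicate 2 value, where black triangles mark replicate 2 peaks called over IgG. The TMPRSS2 bars fall within 39.2 kb apart from a pair of weak peaks, FKBP5 has its tallest bars in 1 group, and ZBTB16 has tall bars more than 100 kb apart (22.7 and 32.1 in replicate 2).

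At TMPRSS2 the peaks filled one part of the window and left most of the rest empty. All 11 replicated sites fell between 42871267 and 42910474, a stretch of 39.2 kb, and the first 71.3 kb of the window had no peak in any list. The strongest site, from 42876964 to 42880071, was broad, at 3108 bp, and was present in all 3 libraries. Replicate 1 showed 13.4-fold enrichment there, replicate 2 showed 26.6-fold and replicate 3 showed 4.88-fold. In the whole lists of replicates 1 and 2, 5.24% and 3.47% of peaks were as high or higher.

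Only 150 bp without a peak of these 3 libraries separated that site from the next, from 42880222 to 42881472. Replicate 1 had a fold enrichment of 10.8 there and replicate 2 of 19.0, and replicate 3 had no peak. A further group of 7 sites began 10344 bp beyond it and was led by a site from 42892642 to 42894709, with 10.4 in replicate 1 and 21.8 in replicate 2. Replicate 2 was higher than replicate 1 at all 11 TMPRSS2 sites.

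At FKBP5 the enrichment was concentrated in a single short group. Of the 7 replicated sites, 4 lay within 7.52 kb, from 35693575 to 35701091. The site from 35694801 to 35695907 had the highest replicate 1 value of any window, 15.6 (2.84% of its list as high or higher), and 19.8 in replicate 2. Its neighbour 74 bp away, from 35695982 to 35697244, had 6.79 in replicate 1 and 21.3 in replicate 2, and so was the higher of the pair in replicate 2 but not in replicate 1. The replicate 2 values were close, and the −log10 q there was slightly lower at the neighbour, 47.7 against 48.3. The site from 35699194 to 35701091 had nearly equal values of 12.5 and 13.7.

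A second, lower pair of FKBP5 sites lay apart from that group. The first, from 35655809 to 35656668, had 8.01 in replicate 1 and 7.89 in replicate 2, and a gap of 215 bp separated it from the second, which had 5.66 and 7.17. The remaining replicated site, from 35571360 to 35572041, was weak in both libraries, at 3.11 and 3.83. No site of this window had a replicate 3 peak, although 8 peaks of the list that belongs to no labelled library fell in it.

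At SLC45A3 many sites were present and few were strong. The highest replicate 2 value among its 10 replicated sites was 11.4, the lowest such maximum of the 6 windows. It belonged to the site from 205672411 to 205673434, where replicate 1 had 4.23. Replicate 1 instead had its highest value, 14.7, in a site from 205599789 to 205601115, where replicate 2 had 9.68. At this site the summits of the highest peaks of both libraries were at the same base.

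This SLC45A3 site had the lowest ratio of replicate 2 to replicate 1 fold enrichment in the windows, 0.659. The adjoining site, from 205601209 to 205601796, turned the order around, with 5.33 in replicate 1 and 11.0 in replicate 2. A broad site of 2522 bp, from 205647522 to 205650043, had 4.56 in replicate 1 and 7.33 in replicate 2. In the RefSeq gene order (GRCh38.p14) ELK4 and NUCKS1 flank SLC45A3, and the window was not divided among these genes. The same holds for MX1 and RIPK4 beside TMPRSS2, TULP1 and ARMC12 beside FKBP5, and CCN4 and ST3GAL1 beside NDRG1. It also holds for ZBP1 and CIMIP1 beside PMEPA1 and for HTR3A and NNMT beside ZBTB16. A site is therefore placed in a window and is not tied to the gene that names it.

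At NDRG1 one site stood above the others. From 134309574 to 134311104 replicate 1 had a fold enrichment of 10.9 and replicate 2 of 24.7, and replicate 3 had no peak. The other 8 replicated sites lay between 3.60 and 6.01 in replicate 1 and between 4.07 and 12.8 in replicate 2. The nearest of them, 95 bp away, had 4.53 and 10.9. A separate group of 3 sites from 134221773 to 134230529 was led by replicate 2 values of 11.7 and 10.8, with 4.45 and 5.72 in replicate 1. CCN4 and ST3GAL1 flank NDRG1 in the RefSeq gene order, and which gene this group lies in or near was not analysed. The site from 134259275 to 134259748 was nearly equal in both, at 6.01 and 6.19.

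At PMEPA1 replicates 1 and 2 put different sites first. Replicate 2 was highest from 56336676 to 56338428, at 24.2, where replicate 1 had 5.67. The ratio of 4.27 was the highest of any site in the windows. Replicate 1 was highest from 56284756 to 56286663, at 8.20, where replicate 2 had 18.7 and replicate 3 had 3.03. This second site was the one of all 3 libraries, although the replicate 3 peak had a −log10 q of 0.889 only. That replicate 3 peak overlapped replicate 1 but shared no base with the replicate 2 peak. With replicate 1 left out, the PMEPA1 window had 0 replicated sites.

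The PMEPA1 site from 56282922 to 56284621 had 6.51 in replicate 1 and 8.90 in replicate 2. A stretch of 107 kb within the window was without a peak in any list, and the lone site before it, from 56172214 to 56172704, was the single replicated site of the windows that replicate 2 lacked, with 5.01 in replicate 1 and 4.43 in replicate 3. The cluster at the end of the window went on beyond its edge, with 7 sites up to 56350186.

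ZBTB16 had the most sites, the broadest single site (4291 bp) and the highest replicate 2 value. The 21 replicated sites spread over 164 kb and covered 14.3% of the window, compared with 13.5% for TMPRSS2 and 3.02% for FKBP5. The site from 114050348 to 114051784 had 7.76 in replicate 1 and 32.1 in replicate 2, where 1.81% of the list was as high or higher. The site from 114033924 to 114037944 was 4021 bp wide, with 9.84 in replicate 1 and 30.8 in replicate 2. The summits of the highest peaks of the libraries were 9 bp apart there.

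Replicate 1 ranked another ZBTB16 site first, from 113930257 to 113932994, with a fold enrichment of 14.2 (4.14% of its list as high or higher). Replicate 2 had 22.7 and replicate 3 had 5.46 at this site. The other ZBTB16 site of all 3 libraries, from 114067571 to 114070439, was lower, at 4.69, 11.4 and 4.20. The site from 113906587 to 113908055 was nearly equal in both replicates, with 10.4 in replicate 2, 1.04 times the replicate 1 value. No replicated site lay beyond 114070439, and the last 55.6 kb of the window had no peak in any list.

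Ranking the windows by their highest site gave a different order in each library. In replicate 2 the order was ZBTB16 (32.1), TMPRSS2 (26.6), NDRG1 (24.7), PMEPA1 (24.2), FKBP5 (21.3) and SLC45A3 (11.4). In replicate 1 it was FKBP5 (15.6), SLC45A3 (14.7), ZBTB16 (14.2), TMPRSS2 (13.4), NDRG1 (10.9) and PMEPA1 (8.20). FKBP5 and SLC45A3, last in replicate 2, were therefore first in replicate 1. Since the orders of the libraries differ, no order of the genes is drawn from them.

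Across the 67 sites of replicates 1 and 2, replicate 2 had the higher fold enrichment at 60 (89.6%), with a median ratio of 1.90. Over all 26760 such sites of the series the share was 88.3% and the median ratio 1.65, so a higher replicate 2 value was the rule throughout the lists. The libraries also differ in their series number and perhaps in their control, and the part of either in the ratio was not tested. Across the 67 sites the fold enrichments of both libraries had a Spearman's rho of 0.67, against 0.71 over the series. By window rho ran from 0.90 at TMPRSS2 (11 sites) through 0.77 at PMEPA1 (9), 0.71 at ZBTB16 (21), 0.64 at FKBP5 (7) and 0.52 at SLC45A3 (10) to 0.27 at NDRG1 (9). These points share their libraries and neighbouring sites, and each rho is given as a description. Summits lay within 100 bp of each other at 40 of the 67 sites (59.7%, against 57.9% over the series).

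**Figure D3:**
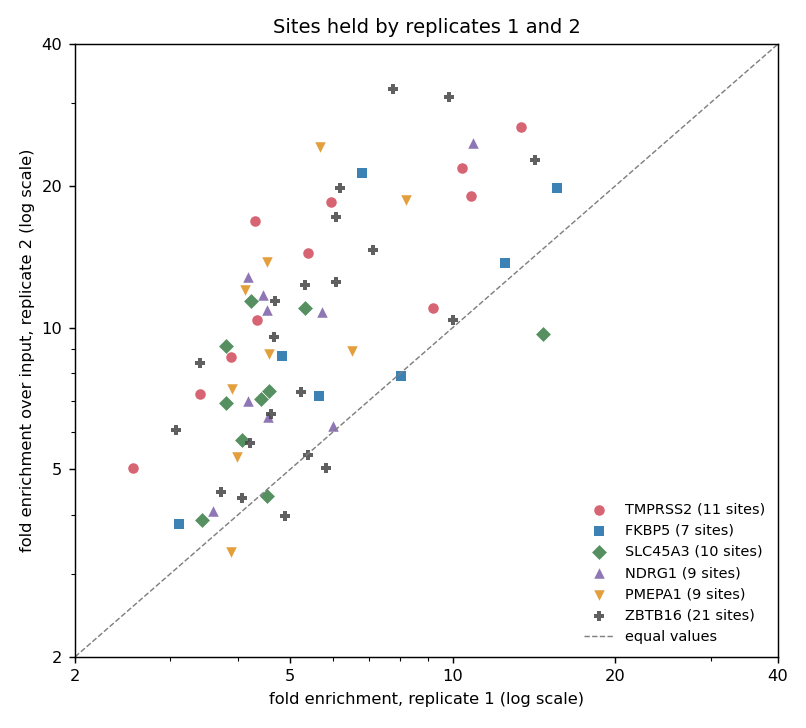
Fold enrichment in replicate 2 (vertical axis, log scale) against replicate 1 (horizontal axis, log scale) for the 67 window sites held by both, 1 point per site and 1 symbol per window, with a dashed line at equal values. Of the 67 points, 60 lie above the line, and the SLC45A3 site at 14.7 and 9.68 lies farthest below it.

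Sites within a window often came in close groups. Of the 68 replicated sites, 40 (58.8%) had another replicated site no more than 300 bp away, against 32.9% over the series. By window this held for 8 of 11 sites at TMPRSS2, 5 of 7 at FKBP5, 5 of 10 at SLC45A3, 4 of 9 at NDRG1, 9 of 10 at PMEPA1 and 9 of 21 at ZBTB16. When sites with gaps of 10 kb or less were joined, the windows had 22 clusters, 5 of which had at least 5 sites. These 5 held 32 of the 68 sites (47.1%), whereas over the series 10.5% of replicated sites lay in such clusters.

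The cluster with the most sites was at ZBTB16, with 9 sites in 33.5 kb from 114018259 to 114051784, and it held the window's 2 highest replicate 2 sites. A second ZBTB16 cluster had 6 sites in 21.0 kb from 113928907 to 113949898. TMPRSS2 had a cluster of 7 sites in 18.7 kb from 42891817 to 42910474, PMEPA1 one of 7 sites in 18.4 kb that crossed the window's edge, and SLC45A3 one of 5 sites in 11.2 kb from 205668474 to 205679673. FKBP5 and NDRG1 had no cluster of this size. Neither share takes account of the higher peak density of the windows, whose part in them was not tested.

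The IgG library was the background measured in the same way as the antibody. Against it, replicate 2 had 19 peaks in the windows and replicate 3, whose whole list over IgG held 1 peak, had 0. The 19 peaks fell in 18 of the 68 replicated sites (26.5%, against 23.2% over the series). They were spread as 5 sites at TMPRSS2, 2 at FKBP5, 4 at NDRG1, 3 at PMEPA1 and 4 at ZBTB16, while SLC45A3 had 0. Their fold enrichment over IgG was low, from 2.26 to 4.97, and 8 of the 19 had a −log10 q of 0.

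At 3 of the 68 sites the peak over IgG had a −log10 q of 1.3 or more (4.41%, against 5.55% over the series). These were the NDRG1 site from 134309574 (4.07-fold over IgG, −log10 q 2.49), the PMEPA1 site from 56336676 (3.89-fold, 2.49) and the ZBTB16 site from 114050348 (4.97-fold, 2.27). Each was the replicated site with the highest replicate 2 value over input in its window. The summits over IgG and over input were at the same base in all 3. Both calls use the same replicate 2 library, so neither this nor the high value over input is separate support. The TMPRSS2 site of all 3 libraries, at 3.58-fold over IgG, had a −log10 q of 0.414, and both FKBP5 sites, at 3.68-fold and 3.43-fold, had 1.01.

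Sites called against IgG had a higher median over input than the others, and the ranges overlapped. The 18 sites had a median replicate 2 fold enrichment over input of 18.8 (range 10.8 to 32.1) and the other 50, of which 1 had no replicate 2 peak, a median of 7.33 (3.33 to 30.8). Over the series these medians were 18.7 and 7.89. Both calls use the replicate 2 library, so a higher value over input at sites called against IgG is partly built in. In replicate 1 the medians of these window sites were 6.07 and 4.55, and over the series 9.87 and 4.99. At TMPRSS2 a site at 16.8 over input had no peak over IgG while one at 14.4 had one, and at NDRG1 a site at 12.8 had none while one at 11.7 had one. The ZBTB16 sites from 114033924, at 30.8 over input, and from 113930257, at 22.7, had no peak over IgG, although lower sites such as the one from 114067571, at 11.4, had one. All 10 SLC45A3 sites, at 11.4 or less, were without one. The depth of the IgG library is unknown, so a site without a call against it is not shown to equal the IgG signal.

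**Figure D4:**
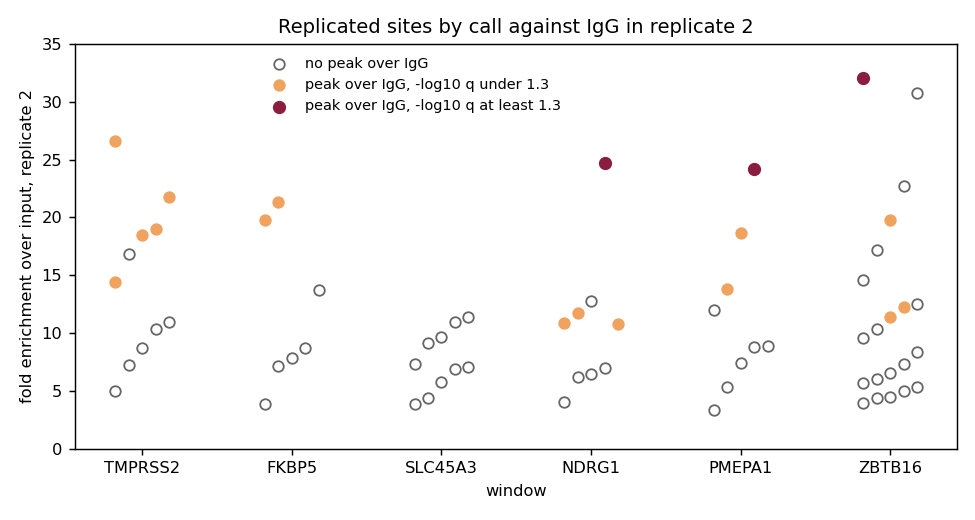
Fold enrichment over input in replicate 2 (vertical axis) for each replicated site of the 6 windows that replicate 2 held, 1 point per site, coloured by whether replicate 2 also had a peak over IgG there and by its −log10 q. Points are spread sideways only to be seen apart. The 3 dark points are the highest of the NDRG1, PMEPA1 and ZBTB16 windows, SLC45A3 has open points only, and 2 of the highest ZBTB16 points (30.8 and 22.7) are open.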

How the data were processed

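ChIP-seq peak lists from 3 HOXB13-K13ac libraries of C4-2B cells were used. The names of the lists give input or IgG as the control of each, except for the list of replicate 1, which names none. The submitters' processing notes name CASAVA 1.4, BWA, Bowtie2, MACS2 and hg19. Roles and thresholds were not given in the sources used here. Fold enrichment, a ratio to the control's background at the summit, was deposited by the authors, as were −log10 p and −log10 q. Summit offsets are other values of the authors. No depth is known.

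Lists were tied to libraries by label spelling, and 1 list matched none and was kept apart. Peaks with 1 bp in common were merged over the genome (Python 3.11.15, NumPy 2.4.6, pandas 2.3.3) and assigned to the windows. Peaks were merged in chains, so not every pair of peaks in a region shares a base. A site's value in a library is its highest fold enrichment there. Sites were joined over gaps of up to 10 kb. The code was tested on simulated peaks and against bedtools 2.31.1. Alternatives changed overlap, q, libraries, window edges and joining distance.

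The members and lists were chosen with earlier results of these data known. The sites described per window follow a rule: the 3 with the highest lower value of replicates 1 and 2, the sites of all 3 libraries, and those with an IgG call of −log10 q 1.3 or more. Others were chosen after their values were seen. No gene positions or genome of hg19 were used, so motifs at summits, positions within genes and a list of other androgen receptor targets were not analysed here.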

Additional observations from a re-analysis of the deposited data

Results flagged for a closer look

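The list of HOXB13-K13ac peaks that no label ties to a library was kept out of the comparisons, and it held peaks in every window. It had 19 peaks at TMPRSS2, 8 at FKBP5, 15 at SLC45A3, 10 at NDRG1, 12 at PMEPA1 and 32 at ZBTB16, each above the count of 3 used as a floor. Among those used here, no control list of the same kind gives a level to set beside them. The list had a peak at 60 of the 68 replicated sites of the windows (88.2%, against 86.9% over the series). Of its 96 window peaks, 2 lay outside every region of the 3 libraries, 1 at SLC45A3 and 1 at ZBTB16. Its highest fold enrichment was 22.6 at ZBTB16, 18.6 at TMPRSS2, 17.4 at FKBP5 and at PMEPA1, 16.2 at NDRG1 and 10 at SLC45A3.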

How the results depend on the processing

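The number of replicated sites in the 6 windows, 68, was 58 at a −log10 q of at least 5, 48 when 0.5 of both widths had to be shared and 43 with summits within 100 bp. Leaving out 1 replicate gave 3 to 67, with 3 when replicate 1 was left out, 5 when it was replicate 2 and 67 when it was replicate 3. The 4 sites of all 3 libraries became 0 with a share of 0.5 of both widths, 0 with summits within 100 bp and 0 with a −log10 q of 5 or more. Replicate 3 peaks at these sites were only 153 to 639 bp wide, and the merged sites 1908 to 3108 bp. The share of both widths therefore depends on peak width as well as position. The 4 sites became 7 with windows widened by 50 kb, through FKBP5 and SLC45A3, and 61 when the list of no labelled library stood in for replicate 3. The labels do not say whether that list is a library apart from the 3, so 61 is not read as replication. With 1 replicate left out the count of sites of all 3 libraries does not exist. The 18 sites called against IgG became 3 at a −log10 q of at least 1.3. The 5 clusters of at least 5 sites became 6 with gaps of up to 20 kb and were 5 without replicate 3. Of the other totals over the 6 windows, all were within 1.5 times the main count. No paired analysis was possible because the IgG and input libraries entered only as controls of the peak calls and no test was made. Precision is limited by 1 list per library of unknown depth.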
